A study of Homo sapiens with 6 samples.

Results

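The monocarboxylate transporters of the SLC16 family and their chaperone basigin were followed in HCT116 cells, which are an established line from a human colorectal carcinoma, after knockdown of PRSS22. The group holds 7 of the 17269 genes in the deposited table: SLC16A1, SLC16A3, SLC16A6, SLC16A7, SLC16A9, SLC16A10 and BSG. They were matched by gene symbol, and all 7 had enough counts to be tested. The group was chosen by a measured value, the low SLC16A6 level of shPRSS22 against shCtrl in these same 6 libraries, and the other members were gathered round it with results of that comparison known. The differences between groups are therefore given for the members as a description, with a standard error (SE) and no p-value. Genes outside the group are tested.

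The study sequenced poly(A) RNA of HCT116 cells labelled shPRSS22, with the genotype PRSS22 knockdown, in 3 libraries, and of HCT116 cells labelled shCtrl, with the genotype WT, in 3 libraries. Both groups grew in the same serum-supplemented medium. The question is how transcript levels change on depletion of PRSS22, a secreted trypsin-like serine protease. The labels give no hairpin sequence, no time after its introduction, and do not say whether the replicates were separate cultures or whether either group is a single clone, so a p-value here speaks only of the variation among these libraries, part or all of which may be technical.

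The SLC16 proteins are membrane carriers. The best known of them move lactate, pyruvate and ketone bodies together with protons, in whichever direction the gradients run, and so let glycolytic cells release lactate and oxidative cells take it up. Several members of the family carry other cargo, such as aromatic amino acids, thyroid hormone, carnitine or taurine. Basigin, a single-pass glycoprotein, escorts SLC16A1 and SLC16A3 to the cell surface and stays bound to them.

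Library totals lay between 15332449 and 15466647 estimated counts in shPRSS22 and between 14920523 and 15164328 in shCtrl. PRSS22 itself stood at 2.95 ± 0.296 CPM in shPRSS22 and 9.86 ± 0.416 CPM in shCtrl (SD, n = 3 each), where CPM is a gene's count relative to the library's scaled total. Of 7 colon epithelial markers, 6 had a mean of at least 1 TPM, the deposited length-normalised transcript abundance. The exception was VIL1, at 0.128 TPM. Of the markers of other cell types, COL1A1 and CD68 were the only ones at 1 TPM or more. The 3 immune markers in the table summed to 18.4 to 22.0 TPM in shPRSS22 and 16.4 to 17.8 TPM in shCtrl, nearly all of it CD68; PTPRC, which marks all leukocytes, averaged 0.00667 TPM. The 5 fibroblast markers summed to 8.24 to 10.1 TPM in shPRSS22 and 6.95 to 9.02 TPM in shCtrl, and the 3 endothelial markers to at most 0.48 TPM in any library.

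The 3 promoter stretches below are shown because they belong to the transporter with the lowest shPRSS22 to shCtrl ratio among members that have an entry, to the chaperone, and to the most abundant transporter. Each of these genes has several stretches, and the one printed is the only one that holds the motif marked in capitals. The stretches are RefSeq sequences of build GRCh38.p14, each 300 bases long, written 5′ to 3′ on the gene's own strand. Capitals mark CACGTG, the E-box bound by MYC and MAX, in SLC16A9 and BSG, and ACGTG, the core of the hypoxia response element bound by HIF1A and ARNT, in SLC16A3.
SLC16A9 promoter, chr10:59710030-59710329, minus strand: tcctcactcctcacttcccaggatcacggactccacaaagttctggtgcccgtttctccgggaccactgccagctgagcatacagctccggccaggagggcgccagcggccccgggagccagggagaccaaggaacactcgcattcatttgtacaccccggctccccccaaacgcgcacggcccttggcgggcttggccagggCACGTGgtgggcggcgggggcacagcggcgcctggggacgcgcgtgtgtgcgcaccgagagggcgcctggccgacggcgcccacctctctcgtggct
BSG promoter, chr19:572346-572645, plus strand: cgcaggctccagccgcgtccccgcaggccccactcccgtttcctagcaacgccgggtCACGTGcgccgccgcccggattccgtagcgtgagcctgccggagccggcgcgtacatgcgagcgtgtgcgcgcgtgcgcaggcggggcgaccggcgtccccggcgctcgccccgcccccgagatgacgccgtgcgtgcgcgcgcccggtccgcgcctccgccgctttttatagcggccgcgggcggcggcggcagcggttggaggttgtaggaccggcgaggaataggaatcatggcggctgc
SLC16A3 promoter, chr17:82228792-82229091, plus strand: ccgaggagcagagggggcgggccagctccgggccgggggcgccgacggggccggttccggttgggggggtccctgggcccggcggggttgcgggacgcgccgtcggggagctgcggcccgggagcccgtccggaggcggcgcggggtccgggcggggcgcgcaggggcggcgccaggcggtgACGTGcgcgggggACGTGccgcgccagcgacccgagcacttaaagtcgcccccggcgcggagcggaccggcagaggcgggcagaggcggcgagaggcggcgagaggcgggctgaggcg
Of the 7 members, 5 matched the promoter table. CACGTG, which reads the same on both strands, stood once in 1 of 2 SLC16A9 stretches and once in 1 of 2 BSG stretches, against 7.26% of all 35116 promoter stretches in the table. ACGTG, searched on both strands, stood at 2 places in 1 of 5 SLC16A3 stretches and at 1 place in the SLC16A10 stretch, against 21.4% of all stretches. The E-box contains ACGTG on each strand, so the SLC16A9 and BSG stretches also hold that core. TGACNNNGC, the core of the antioxidant response element bound by NRF2, stood once in the other SLC16A9 stretch and once in the BSG stretch printed above, against 13.3% of all stretches. No motif was found in the 2 SLC16A7 stretches. The percentages count single stretches, and a gene with several stretches had more chances to match. All of these are matches of letters and were not tested for binding.

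SLC16A6 differed most between the groups. It encodes MCT7, reported as a carrier of taurine and, in zebrafish liver, of ketone bodies. Its level was 4.63, 6.57 and 4.96 CPM in shPRSS22 replicates 1 to 3, against 14.4, 14.2 and 13.02 CPM in shCtrl replicates 1 to 3. All 3 knockdown libraries lay below all 3 control libraries, and the highest knockdown library was replicate 2. Behind these levels stood 72, 100 and 76 counts in shPRSS22 and 215, 215 and 197 counts in shCtrl and in shPRSS22 they were the fewest of the 7 members. In bulk RNA, fewer cells with a transcript and less of it per cell cannot be told apart. The means were 5.39 ± 1.04 CPM in shPRSS22 and 13.9 ± 0.730 CPM in shCtrl (SD, n = 3 each), a log2 fold change of -1.36 (SE 0.117). The knockdown thus kept 38.9% of the control level. Ordered by fold change, SLC16A6 was number 7 from the lowest of 13104 genes tested. The group was chosen by this low value, so nothing is read from that rank.

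SLC16A9 was the other transporter with a large difference. It encodes MCT9, a carrier of carnitine. Its level was 10.7, 12.8 and 11.0 CPM in shPRSS22 replicates 1 to 3, against 21.4, 23.6 and 22.4 CPM in shCtrl replicates 1 to 3. The groups did not overlap, and within each group the libraries stood close together. The log2 fold change was -0.97 (SE 0.0843), which leaves 51.1% of the control level. Of the 13104 genes tested, 41 (0.313%, SLC16A9 included) had a fold change this low or lower. SLC16A9 joined the group with this result known, so the share only describes its place.

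The lactate importer and exporter SLC16A1, or MCT1, was higher in the knockdown. Its level was 253.3, 252.4 and 268.0 CPM in shPRSS22 replicates 1 to 3, against 205.0, 207.4 and 217.7 CPM in shCtrl replicates 1 to 3. The lowest knockdown library was above the highest control library. The means of 257.9 ± 8.74 CPM in shPRSS22 and 210.0 ± 6.72 CPM in shCtrl gave a log2 fold change of 0.30 (SE 0.0350; SD, n = 3 each). SLC16A7, or MCT2, a carrier with high affinity for pyruvate and lactate, was also higher. It stood at 26.5, 25.1 and 25.9 CPM in shPRSS22, against 18.6, 21.4 and 19.8 CPM in shCtrl, with a log2 fold change of 0.37 (SE 0.0701) and no overlap. Its counts carried decimals in 3 libraries, meaning that some reads had been divided with other genes.

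SLC16A3, or MCT4, the carrier through which glycolytic cells export lactate, showed no separation. It stood at 230.5, 244.0 and 222.6 CPM in shPRSS22, against 246.4, 242.0 and 226.0 CPM in shCtrl. The log2 fold change was -0.04 (SE 0.0375), and the ranges overlapped. Its counts carried decimals in all 6 libraries. SLC16A10, or TAT1, which lets aromatic amino acids and thyroid hormone across the membrane, stood at 13.2, 12.1 and 13.8 CPM in shPRSS22, against 13.8, 15.9 and 14.4 CPM in shCtrl. Those ranges overlapped slightly, with a log2 fold change of -0.17 (SE 0.0899).

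BSG, the chaperone, was slightly lower. It stood at 574.3, 617.4 and 617.4 CPM in shPRSS22, against 642.8, 662.2 and 635.7 CPM in shCtrl. The groups did not overlap, yet the log2 fold change was only -0.10 (SE 0.0350), with replicate 1 the lowest knockdown library.

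**Figure D1:**
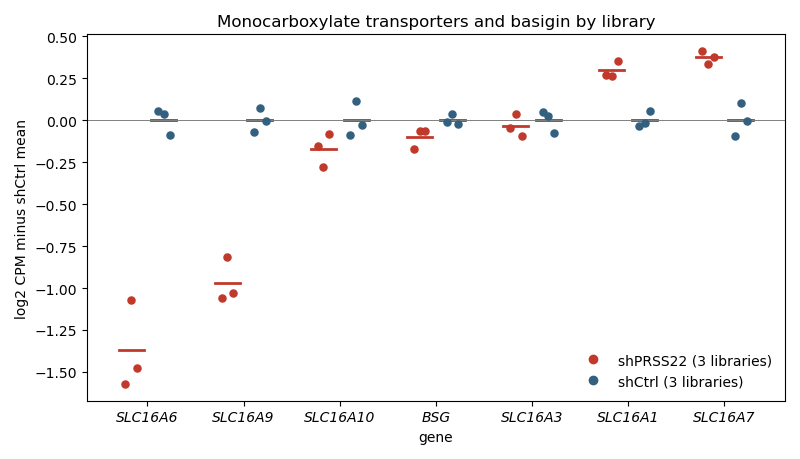
Level of each member in each library, as log2 CPM minus the shCtrl mean of that gene (vertical axis); red points are the 3 shPRSS22 libraries, blue points the 3 shCtrl libraries, and bars are group means. SLC16A6 and SLC16A9 lie far below their controls, SLC16A1 and SLC16A7 above them, and SLC16A3 and SLC16A10 overlap.

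Across the members, 2 were past the threshold of the edgeR quasi-likelihood test upward (SLC16A1, SLC16A7), 3 downward (SLC16A6, SLC16A9, BSG) and 2 not. Of all tested genes 39.1% were past it, 19.9% upward and 19.3% downward. For 5 members the ranges of the groups were apart, as they were for 48.6% of all tested genes. The median log2 fold change was -0.10 over the 7 members and -0.0056 over all tested genes. Since this comparison chose the members, nothing is read from these counts.

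Levels of different genes were compared in TPM, the deposited values per transcript length. BSG was far above its partners, at 749.8 ± 25.0 TPM in shPRSS22 and 799.8 ± 11.7 TPM in shCtrl (SD, n = 3 each). Among the SLC16 genes, SLC16A3 came first, at 172.4 ± 5.55 TPM in shPRSS22 and 174.8 ± 7.68 TPM in shCtrl. SLC16A1 came second, at 120.0 ± 5.69 TPM in shPRSS22 and 97.0 ± 3.64 TPM in shCtrl. SLC16A5, or MCT6, known as a carrier of drugs such as bumetanide and not one of the members, came next, at 56.7 ± 3.47 TPM in shPRSS22 and 55.8 ± 1.80 TPM in shCtrl. Each of these ranges was apart from the next in both groups.

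The less abundant transporters changed places. In shPRSS22 the order below SLC16A5 was SLC16A9 (5.23 TPM), SLC16A7 (3.57 TPM), SLC16A14 (2.79 TPM), SLC16A13 (2.61 TPM), SLC16A6 (2.57 TPM) and SLC16A10 (2.00 TPM). The last 3 before SLC16A10 could not be told apart by their ranges. In shCtrl it was SLC16A9 (10.2 TPM), SLC16A6 (6.49 TPM), SLC16A14 (4.38 TPM), SLC16A13 (3.40 TPM), SLC16A7 (2.75 TPM) and SLC16A10 (2.46 TPM), with only the ranges of SLC16A7 and SLC16A10 overlapping. SLC16A6 thus stood in place 8 among the SLC16 genes in shPRSS22 and in place 5 in shCtrl, while SLC16A7 stood in place 5 in shPRSS22 and in place 8 in shCtrl.

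**Figure D2:**
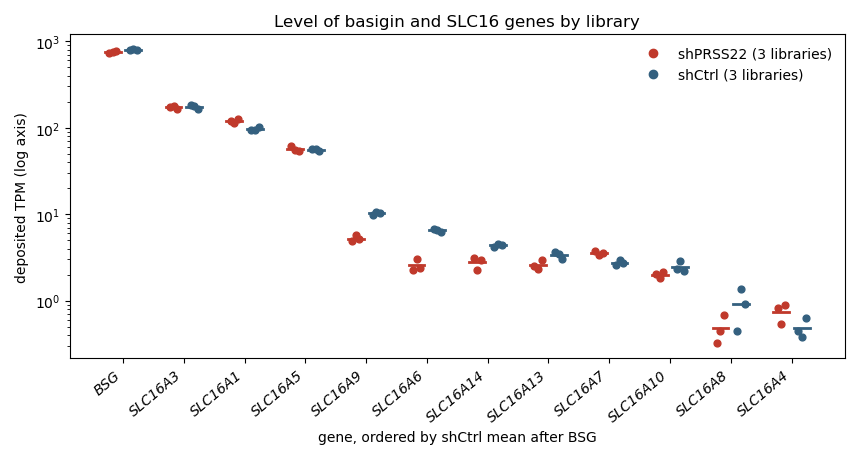
Deposited TPM on a log axis for BSG and the SLC16 genes that reach 0.5 TPM in a group mean; red points are the 3 shPRSS22 libraries, blue points the 3 shCtrl libraries, bars are means. SLC16A3, SLC16A1 and SLC16A5 stand above every other SLC16 gene in all 6 libraries, and SLC16A6 moves below SLC16A7 in shPRSS22.

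The 6 transporters among the members summed to 305.3 to 306.4 TPM in shPRSS22 and 288.8 to 297.2 TPM in shCtrl. SLC16A1 made up 39.2% ± 1.88 of that sum in shPRSS22 and 33.0% ± 1.74 in shCtrl (SD, n = 3 each). SLC16A3 made up 56.4% ± 1.78 in shPRSS22 and 59.5% ± 1.74 in shCtrl. SLC16A6 made up 0.840% ± 0.135 in shPRSS22 and 2.21% ± 0.0688 in shCtrl, so the transporter with the largest fold difference was a minor part of the pool. The ratio of SLC16A1 to SLC16A3 was 0.646 to 0.756 in shPRSS22 and 0.522 to 0.608 in shCtrl. The ratio of BSG to SLC16A1 and SLC16A3 together was 2.47 to 2.65 in shPRSS22 and 2.89 to 2.99 in shCtrl. Neither pair of ranges overlapped, where for single genes the groups were apart in CPM for 48.6% of all tested genes. Both ratios hold SLC16A1, whose own groups did not overlap, so nothing further is read from them.

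SLC16A6 lies inside another gene. In GENCODE 29 (build GRCh38) it occupies bases 68267026 to 68291267 of chromosome 17, minus strand, within ARSG, which runs from 68259182 to 68422731 on the plus strand. ARSG encodes arylsulfatase G, a lysosomal sulfatase. The pair also meets head to head: 3 of 4 coding ARSG transcripts start 224, 228 and 251 bases beyond the SLC16A6 start. Exons of the 2 genes share 144 bases, 3.55% of the SLC16A6 exonic bases. No strand marking is described for the libraries, so reads from those shared bases cannot be assigned to a strand.

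ARSG fell with the knockdown as well. Its level was 20.3, 18.9 and 20.0 CPM in shPRSS22, against 36.3, 34.9 and 34.7 CPM in shCtrl. All 3 knockdown libraries were lower, and ARSG kept 55.9% of the control level, with a log2 fold change of -0.84 (SE 0.0637; edgeR quasi-likelihood test, adjusted p = 2.81e-12). Its counts carried decimals in all 6 libraries, whereas those of SLC16A6 were whole in all 6. The part of the shared bases in either difference was not tested, and gene counts do not separate the coding ARSG transcripts that start next to SLC16A6 from the coding one that starts far before it.

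The genes flanking SLC16A6 were not called lower. AMZ2, a metalloprotease gene that ends 9862 bases before SLC16A6, stood at 165.1, 164.1 and 165.2 CPM in shPRSS22 and 165.7, 165.6 and 163.6 CPM in shCtrl. Its log2 fold change was -0.0013 (SE 0.0337; edgeR adjusted p = 0.980), and its sign turned under other settings. WIPI1, an autophagy gene on the minus strand, has its near end 129681 bases on the other side and overlaps the far end of ARSG. WIPI1 rose to 96.7 ± 1.32 CPM in shPRSS22, against 79.2 ± 3.45 CPM in shCtrl (log2 fold change 0.29, SE 0.0420; edgeR adjusted p = 1.66e-06; SD, n = 3 each). The near end of WIPI1 lies within the last ARSG exon, whose longest form spans 128922 to 131464 bases beyond the SLC16A6 start. WIPI1 counts carried decimals in every library, and the part of shared reads in its rise was not tested. On either side of SLC16A6 stood 1 gene with no call and 1 that rose, the latter overlapping ARSG. The other member locations were chromosome 1 for SLC16A1, chromosome 17 for SLC16A3, chromosome 12 for SLC16A7, chromosome 10 for SLC16A9, chromosome 6 for SLC16A10 and chromosome 19 for BSG. SLC16A9, from 59650761 to 59736002 on the minus strand, overlapped no annotated gene. In the same annotation the kinase gene CSNK1D overlaps the span of SLC16A3, and antisense transcripts overlap the spans of SLC16A1, SLC16A10 and BSG. Whether any exons are shared there was not examined. Reads from a shared exon could not be assigned to a strand either.

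**Figure D3:**
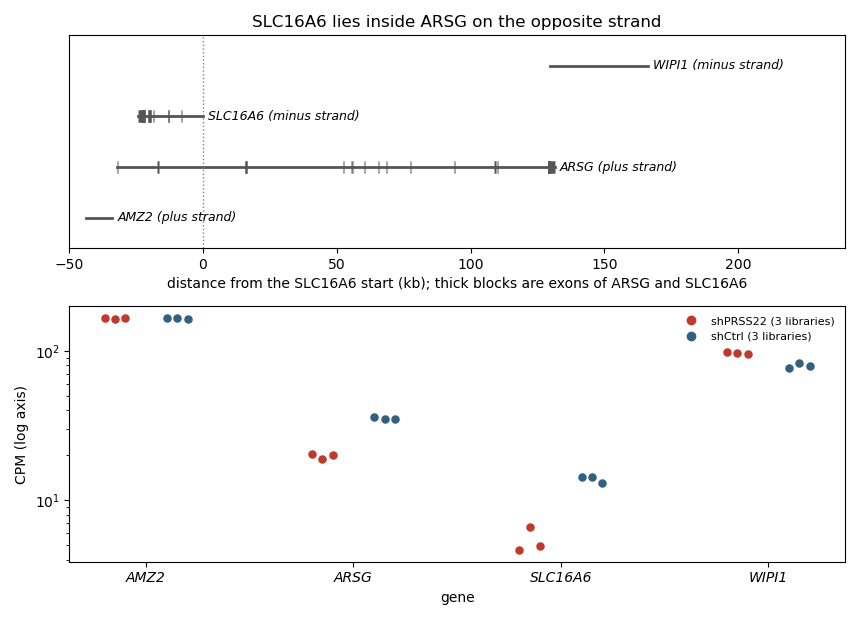
Top, SLC16A6, ARSG and the genes on either side by distance in kb from the SLC16A6 start, with exons of ARSG and SLC16A6 as thick blocks. Bottom, CPM on a log axis in the 3 shPRSS22 (red) and 3 shCtrl (blue) libraries: ARSG and SLC16A6 are lower in shPRSS22, AMZ2 overlaps and WIPI1 is higher.

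Genes whose pattern over the 6 libraries was most like that of SLC16A6 were sought among 11155 genes with a mean of at least 5 CPM, by Pearson correlation of log2 CPM. The 5 closest were TUBB2A, a beta tubulin (r = 0.999), the transcription factor KLF2 (0.999), the ADP-ribose hydrolase MACROD1 (0.998), the nucleolar factor TCOF1 (0.998) and the nucleosome-binding protein HMGN1 (0.998). The libraries form 2 groups, and 1268 genes had a correlation above 0.9, so the measure mostly picks genes that were lower in shPRSS22. Their own log2 fold changes were -0.56, -0.58, -0.38, -0.27 and -0.23 in that order. By distance between centred log2 CPM values, 0 of these 5 stayed among the closest: the 5 nearest were then CTHRC1, ADAMTS14, LTBP3, SLC16A9 and PAAF1. SLC16A9, 1 of these 5, had a log2 fold change of -0.97, and CTHRC1, a secreted collagen repeat protein, was the nearest at -1.37. The distance mostly follows how close a fold change lies to that of SLC16A6. SLC16A9 was gathered into the group with its result known, so nothing is read from its place. ARSG had a correlation of 0.957 with SLC16A6 and ranked number 512.

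Genes related to the members were counted in 6 lists, to be read against the 19.9% of all tested genes that rose and the 19.3% that fell. Over the lists, 12 of 49 tested genes rose, 4 fell and 33 did not pass, and no test set a list against the other genes.

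The rest of the SLC16 family held 1 further change. The list held 7 other SLC16 genes, all in the table, and 4 had enough counts; SLC16A8, SLC16A11 and SLC16A12 never exceeded 10 counts. Of the 4 tested, 0 rose, 1 fell and 3 did not pass, with a median log2 fold change of -0.21, against -0.0056 over all tested genes. SLC16A14, whose cargo is little known, stood at 6.59 ± 1.03 CPM in shPRSS22 and 10.7 ± 0.400 CPM in shCtrl (log2 fold change -0.70, SE 0.116; edgeR adjusted p = 1.29e-05; SD, n = 3 each). SLC16A5 had a log2 fold change of -0.04 (SE 0.0411), SLC16A13 one of -0.39 (SE 0.189) and SLC16A4 one of 0.55 (SE 0.346).

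Of 6 tested partners at the membrane 3 rose, 0 fell and 3 did not pass, against 19.9% higher and 19.3% lower among all tested genes, with a median of 0.19. The carbonic anhydrases CA2 and CA12 buffer the protons that travel with lactate. CA2 stood at 44.7 ± 1.13 CPM in shPRSS22 and 36.5 ± 1.31 CPM in shCtrl (log2 fold change 0.29, SE 0.0544), and CA12 at 21.1 ± 0.593 CPM in shPRSS22 and 16.8 ± 1.495 CPM in shCtrl (0.33, SE 0.0776). PPIA, cyclophilin A, a ligand of basigin with many pseudogenes, rose by a log2 fold change of 0.10 (edgeR adjusted p = 0.0216). It lost that call without shCtrl replicate 1 (adjusted p = 0.0545), 2 (0.0714) or 3 (0.0615) and without shPRSS22 replicate 2 (0.0594). The ancillary proteins EMB, the partner of SLC16A7, and NPTN had log2 fold changes of -0.04 (SE 0.0589) and -0.06 (SE 0.0376), and CA9, a hypoxia-induced carbonic anhydrase, one of 0.66 (SE 0.271); none of these passed the test. The sodium-coupled carriers SLC5A8 and SLC5A12 had too few counts to test.

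Of 17 tested genes of lactate and pyruvate metabolism 3 rose, 0 fell and 14 did not pass, the share that rose being near the 19.9% of all tested genes, with a median of 0.0020. MPC1, a subunit of the mitochondrial pyruvate carrier, stood at 44.7 ± 0.705 CPM in shPRSS22 and 33.9 ± 2.59 CPM in shCtrl (log2 fold change 0.40, SE 0.0580; edgeR adjusted p = 1.48e-06; SD, n = 3 each), while its partner MPC2 had a value of 0.09 (SE 0.0809) that did not pass. PC, pyruvate carboxylase, rose by 0.26 (SE 0.0617), and PDP1, the phosphatase that activates pyruvate dehydrogenase, by 0.13 (SE 0.0344). The lactate dehydrogenase genes LDHA and LDHB had values of -0.15 (SE 0.0617) and 0.0020 (SE 0.0346).

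Of 5 tested ketone body enzymes 1 rose, 2 fell and 2 did not pass, where 39.1% of all tested genes were called in either direction, with a median of -0.08. OXCT1, the transferase by which cells use ketone bodies, fell to 23.7 ± 0.744 CPM in shPRSS22, against 33.2 ± 2.59 CPM in shCtrl (log2 fold change -0.49, SE 0.0660; edgeR adjusted p = 4.74e-07; SD, n = 3 each). BDH2, a cytosolic short-chain dehydrogenase, rose by 0.37 on the log2 scale (SE 0.0816). BDH1, the mitochondrial hydroxybutyrate dehydrogenase, fell by 0.28 (edgeR adjusted p = 0.00726). That call was lost without shPRSS22 replicate 2 (log2 fold change -0.21, adjusted p = 0.0557) and with DESeq2 (adjusted p = 0.0587), and either way 1 ketone body gene fell.

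The list of other carriers covered taurine, carnitine, aromatic amino acids, creatine and urate, taken as cargo of SLC16A6, SLC16A9, SLC16A10 or SLC16A12. SLC16A12 is not one of the members. Of the 10 tested carriers 4 rose, 1 fell and 5 did not pass, with a median of 0.09. Among all tested genes 19.9% were higher and 19.3% lower. SLC6A6, the sodium-coupled taurine importer, stood at 161.4 ± 7.58 CPM in shPRSS22 and 116.9 ± 4.10 CPM in shCtrl (log2 fold change 0.47, SE 0.0392; edgeR adjusted p = 2.98e-11; SD, n = 3 each), while SLC16A6 was lower. The aromatic and branched-chain amino acid exchanger SLC7A5 rose by 0.30 (SE 0.0348). Its heavy chain SLC3A2, named here because it was the remaining gene that rose, rose by 0.22 (SE 0.0344). ABCG2, an efflux pump for urate and drugs, rose to 6.03 ± 0.457 CPM in shPRSS22, against 3.49 ± 0.242 CPM in shCtrl (0.79, SE 0.147). SLC6A8, the creatine importer, fell to 72.7 ± 2.53 CPM in shPRSS22, against 95.2 ± 1.12 CPM in shCtrl (log2 fold change -0.39, SE 0.0419). The carnitine importer SLC22A5 had a value of 0.09 (SE 0.0888) that did not pass.

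Of 7 tested transcription factors known to act on these genes 1 rose, 0 fell and 6 did not pass, against 19.9% higher and 19.3% lower among all tested genes, with a median of 0.0049. MAX, the dimer partner of MYC, stood at 73.9 ± 1.53 CPM in shPRSS22 and 60.2 ± 2.95 CPM in shCtrl (log2 fold change 0.30, SE 0.0463; edgeR adjusted p = 5.17e-06; SD, n = 3 each). MYC, a known activator of SLC16A1, had a value of 0.07 (SE 0.0464), and HIF1A, a known activator of SLC16A3, one of 0.0049 (SE 0.0341). Transcript levels do not show the activity of these factors.

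**Figure D4:**
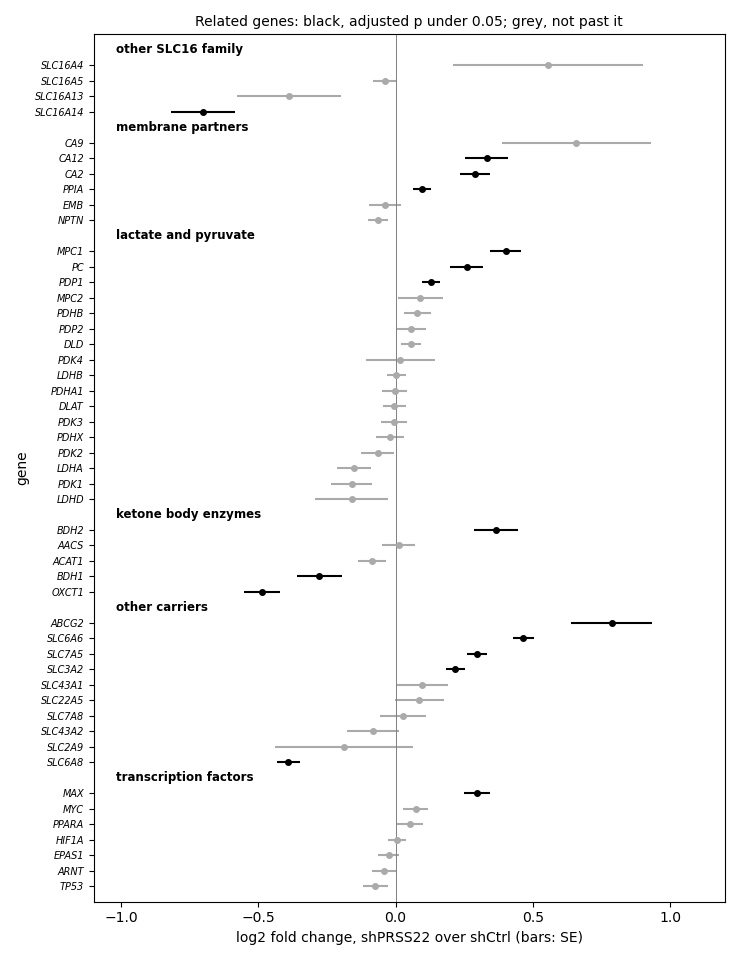
Log2 fold change of shPRSS22 over shCtrl (horizontal axis, bars are SE) for the 49 tested genes of the 6 lists, ordered within each list; black points have an edgeR adjusted p under 0.05 and grey points do not. Black points lie on both sides of zero among the ketone body enzymes and the carriers, and the 3 black points among the lactate and pyruvate genes lie above zero.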

How the data were processed

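Poly(A) RNA of 3 shPRSS22 and 3 shCtrl libraries of HCT116 cells was sequenced. The submitters' processing notes name build GRCh38.p13 and, with no roles, RSEM 1.3.1, Bowtie2 2.3.4.3 and HISAT2 2.2.1 besides R 4.3.1, DESeq2 1.4.5 and FastQC 0.12.1. The authors deposited estimated counts per gene and library, which may carry decimals where reads are shared between genes, and TPM values; the deposited FPKM values and normalised counts (a scaled signal) were not used, nor were the authors' deposited log2 fold changes and p-values.

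The estimated counts were rounded and fitted with edgeR 4.0.16 in R 4.3.3 (TMM, filterByExpr, robust quasi-likelihood test, two-sided), which left 13104 genes. P-values were adjusted over all of them by the Benjamini-Hochberg method, with a threshold of 0.05. CPM uses TMM-scaled totals, and SE is the log2 fold change divided by the square root of F. The procedure was checked on simulated data.

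Members, lists and alternatives were chosen with earlier results of these data known. Genes named are PRSS22, all members, the genes next to SLC16A6, the 5 most like it, and in each list at most 3 per direction past the threshold with a mean of at least 1 CPM. SLC3A2, the list genes named that did not pass or were too low to test, and the genes nearest SLC16A6 by distance fall outside this rule, and were named after their values were seen. Some genes of the SLC16 family and ketone body lists are not reported here and not counted in the lists. Alternatives were DESeq2 1.42.0, other scalings, other filters, limma 3.58.1 on log2(TPM + 0.5), a replicate block and leaving out each library.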

Additional observations from a re-analysis of the deposited data

How the results depend on the processing

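Each member kept its direction and stayed within the spread between replicates under all 13 alternatives. In log2 fold change SLC16A6 lay between -1.52 and -1.20, with the value nearest zero on the log2(TPM + 0.5) scale. SLC16A10 lay between -0.24 and -0.11, with the value farthest from zero on that scale. SLC16A9 lay between -1.045 and -0.91, SLC16A1 between 0.27 and 0.33 and SLC16A7 between 0.33 and 0.43. SLC16A3 lay between -0.069 and -0.0051 and BSG between -0.118 and -0.067. AMZ2, next to zero, turned to 0.00063 with RLE scaling, to 0.0146 with limma on TPM, and lay between -0.0044 and 0.0052 without single libraries. DESeq2 called 1637 genes lower, against 2523 with edgeR, and 1760 higher, against 2603.

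Among the lists, limma on TPM called 2 SLC16 genes lower. With no filter 2 ketone body genes rose and 2 lactate and pyruvate genes fell. Without single libraries the counts ran from 0 to 1 lower partners (1 without shCtrl replicate 1 or 2), 0 to 2 lower lactate and pyruvate genes (2 without shCtrl replicate 3 or shPRSS22 replicate 2), 1 to 2 lower carriers (2 without shCtrl replicate 1), 1 to 2 higher transcription factors (2 without shPRSS22 replicate 2 or 3), 2 to 4 higher partners and 1 to 2 lower ketone body genes (1 without shPRSS22 replicate 2). DESeq2 called 1 ketone body gene lower. The causes were not tested. Summed over all SLC16 genes of the table, SLC16A1 made up 32.5% in shPRSS22 and 27.0% in shCtrl, and SLC16A3 made up 46.7% in shPRSS22 and 48.7% in shCtrl, since more genes enter the sum.

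Libraries of the same replicate number deviated together only weakly (correlations of 0.0046, 0.016 and 0.097 over genes), and not every library correlated best with its own number. With a replicate block SLC16A6 stood at -1.36, 2782 genes were higher and 2747 lower, and 2 lactate and pyruvate genes fell. Genes of few counts, SLC16A6 among them at 72 to 100 counts in shPRSS22, are limited by depth.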
